A study of Mus musculus with 8 samples.

Results

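The mRNAs of the TGF-β ligands and of their receptors were examined in NMuMG cells, a mouse epithelial line derived from normal mammary gland. The 10 genes were chosen by name, as the rows of the deposited count table that carry the symbols *Tgfb1*, *Tgfb2*, *Tgfb3*, *Tgfbr1*, *Tgfbr2*, *Tgfbr3*, *Eng*, *Acvr1*, *Acvr1b* and *Acvr2a*, and each matched 1 of the 37310 genes of the table. RNA was sequenced from control cells and from cells labelled as *Lnc-Nr6a1* knockout, each either untreated or treated for 2 h with TGFβ1 at 10 ng/mL, with 2 libraries in each of 4 conditions. All cells grew in medium with serum and insulin. *Lnc-Nr6a1* is a long non-coding RNA gene, and the study made its knockout cells by Cas9 deletion between its promoter and first exon and grown from single cells. Which clones, and how many, gave the libraries is not given in the sources used here.

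TGF-β ligands are secreted as inactive dimers held by their propeptides and released outside the cell. An active dimer binds a pair of type II receptors, serine/threonine kinases of the cell membrane, which phosphorylate a pair of type I receptors, and these in turn phosphorylate SMAD transcription factors. TGF-β itself signals through the type II receptor TGFBR2 and the type I receptor TGFBR1, also called ALK5. ACVR1 (ALK2), ACVR1B (ALK4) and ACVR2A serve mainly activins and bone morphogenetic proteins. Betaglycan (*Tgfbr3*) and endoglin (*Eng*) are co-receptors without kinase activity. In mammary epithelial cells TGF-β is known for growth arrest and for epithelial-to-mesenchymal transition (EMT), and NMuMG cells are a common model of both.

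Of the 10 genes, the mRNAs of 2 type I receptors passed the test for a change after 2 h of TGF-β. *Tgfbr1* and *Acvr1* rose about 5-fold, in control cells by 2.41 ± 0.25 and 2.38 ± 0.20 (log2, ± SE), and they rose in libraries labelled knockout as well. The third type I receptor, both type II receptors, the ligands and endoglin did not pass the test in either genotype, and betaglycan was too rare to be tested. At an unadjusted p under 0.05 by edgeR, there were 4 of the 9 tested genes in each genotype, beside 26.8 and 22.7% of all tested genes. Between genotypes, the only call was *Tgfb1*, higher in treated libraries labelled knockout than in treated control cells. A count of 1 among 9 is near the background there, where 8.47% of all tested genes were called higher, and the call was lost in 5 of the alternatives run.

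The sequences upstream of *Tgfbr1* and *Acvr1*, which rose, of *Tgfb2*, and of *Tgfbr2*, the partner of *Tgfbr1*, are shown as their promoter context. Each is the run of 250 bases before a start site of RefSeq, written 5′ to 3′ on the strand of the gene. Their build, GRCm38.p6, is later than mm9, which gave the gene positions in later paragraphs. Such windows were found for 8 of the 10 genes. Capitals mark CAGAC or GTCTG, the core of the SMAD binding element and its reverse complement. The second motif searched was the AP-1 motif TGANTCA, which reads the same on both strands and can share 2 bases with either of the former. It occurred in none of the windows of these genes and in 6.75% of all 32851 windows. *Tgfbr1* has start sites for 2 windows.
*Tgfbr1*, first start, chr4:47352972-47353221, plus strand: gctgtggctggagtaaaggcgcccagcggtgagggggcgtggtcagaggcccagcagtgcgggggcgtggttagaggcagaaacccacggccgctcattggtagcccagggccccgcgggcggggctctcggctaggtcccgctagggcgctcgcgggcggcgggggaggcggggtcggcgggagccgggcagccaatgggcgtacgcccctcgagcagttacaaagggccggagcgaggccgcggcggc
*Tgfbr1*, second start, chr4:47385966-47386215, plus strand: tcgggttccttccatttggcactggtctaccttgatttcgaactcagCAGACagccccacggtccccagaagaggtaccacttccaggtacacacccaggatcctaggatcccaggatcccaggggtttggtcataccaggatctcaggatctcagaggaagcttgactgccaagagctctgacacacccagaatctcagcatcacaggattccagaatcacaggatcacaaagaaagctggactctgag
*Acvr1*, chr2:58566829-58567078, minus strand: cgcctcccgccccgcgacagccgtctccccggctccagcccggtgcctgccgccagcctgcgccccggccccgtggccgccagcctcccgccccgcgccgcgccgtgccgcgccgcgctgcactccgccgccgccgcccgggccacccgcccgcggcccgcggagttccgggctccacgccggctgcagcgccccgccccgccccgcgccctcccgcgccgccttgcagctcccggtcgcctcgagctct
*Tgfb2*, chr1:186705990-186706239, minus strand: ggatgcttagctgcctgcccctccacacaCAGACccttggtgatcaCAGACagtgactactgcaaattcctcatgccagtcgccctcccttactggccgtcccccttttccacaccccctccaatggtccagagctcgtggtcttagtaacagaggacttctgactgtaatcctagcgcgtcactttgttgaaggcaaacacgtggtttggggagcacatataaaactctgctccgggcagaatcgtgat
*Tgfbr2*, chr9:116175364-116175613, minus strand: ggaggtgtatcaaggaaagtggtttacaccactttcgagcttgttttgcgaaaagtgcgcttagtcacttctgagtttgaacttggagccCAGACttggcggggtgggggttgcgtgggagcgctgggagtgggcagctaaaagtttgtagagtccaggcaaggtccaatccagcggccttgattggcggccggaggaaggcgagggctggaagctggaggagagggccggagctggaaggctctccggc

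CAGAC or GTCTG is short and common, with a match in 42.2% of all windows of the same length. *Tgfb2* held 2 copies of CAGAC, 221 and 204 bases before its start. A single CAGAC lay 203 bases before the second start of *Tgfbr1* and 160 bases before that of *Tgfbr2*, while *Eng* held one of each orientation and *Acvr2a* 1 GTCTG. No match was found in the windows of *Acvr1*, *Tgfb1*, *Acvr1b* or the first start of *Tgfbr1*. These windows are rich in G and C, with 85.6% for *Acvr1* and 74.8% for the first start of *Tgfbr1* against a median of 52.4% over all windows. The letters describe these windows alone and say nothing about the binding of a factor there or elsewhere.

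The libraries held 4297832 to 13574397 counts, and the level that 3 counts stand for was 0.238 to 0.661 CPM (counts divided by TMM-scaled library sizes). Such floors cover counting error only. *Lnc-Nr6a1* itself was read from the gene of symbol *Gm13507*. It had 3 and 14 counts in untreated control cells and 25 and 35 in treated control cells. In libraries labelled knockout it had 11 and 7 counts before and 0 in both after treatment. As its reads were also counted in the untreated libraries labelled knockout, these libraries are called by their label throughout. The paper reports, by RT-qPCR, a full loss of its isoforms in clones with the deletion on both alleles. The few counts here cover the whole gene, with the use of strand unknown, and cannot decide whether the deletion was present. Of 8 epithelial markers, *Cldn3* and *Cldn7* were at 0 in every library, *Epcam* had 2 counts in 1 library and *Krt7* had 4 to 14 counts in a library. In contrast, *Krt8* stood between 2124 and 4340 CPM and *Cdh1* between 193 and 399 CPM. The summed level of the epithelial markers was 5866 to 5944 CPM in untreated and 8018 to 10915 CPM in treated control cells. In libraries labelled knockout it was 6624 to 6962 CPM untreated and 7928 to 10375 CPM treated. Nearly all of this level was *Krt8*, *Krt18* and *Krt19* in every library. Markers of other cells were low, with sums of at most 0.846 CPM over 5 endothelial, 4.84 CPM over 7 fibroblast and 5.44 CPM over 5 leukocyte genes. With treatment, the endothelial sum went from 0 and 0.361 to 0.562 and 0.846 CPM in control cells. In libraries labelled knockout it went from 0 and 0.133 to 0.326 and 0.556 CPM. The fibroblast sum went from 1.45 and 2.07 to 3.09 and 4.44 CPM in control cells and overlapped in libraries labelled knockout. The leukocyte sum overlapped in control cells and fell from 4.40 and 5.44 to 2.14 and 2.52 CPM in libraries labelled knockout. The sum over 5 myoepithelial or basal markers moved with treatment, from 4.75 and 5.90 CPM to 24.0 and 25.7 CPM in control cells and from 2.42 and 2.79 CPM to 23.9 and 41.9 CPM in libraries labelled knockout, nearly all of it *Krt14*. The part of these markers in the results on receptors was not tested. In bulk RNA, fewer cells that express a gene and less of its RNA per cell cannot be told apart.

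To set levels of different genes side by side, CPM was divided by the length of each gene's exons in kilobases. In untreated control cells the order was *Tgfbr2*, *Tgfbr1*, *Acvr2a*, *Tgfb1*, *Acvr1b*, *Acvr1*, *Tgfb2*, *Tgfb3*, *Eng* and *Tgfbr3*. The range of the libraries of *Tgfbr2*, with a mean of 21.7 CPM per kb, overlapped that of *Tgfbr1*, with 18.4 CPM per kb. *Acvr2a* and *Tgfb1* also overlapped, as did *Acvr1b* and *Acvr1*, and *Tgfb3* and *Eng*. After TGF-β, *Tgfbr1* stood first with 97.9 CPM per kb and *Acvr1* second with 28.9 CPM per kb, and neither range overlapped the next in order. The order began alike in the treated libraries labelled knockout, with *Tgfbr1* at 132 CPM per kb, *Acvr1* at 37.1 CPM per kb and *Tgfbr2* at 22.6 CPM per kb. With the coding length or the longest transcript as the length, 7 to 10 of the 10 genes kept their place in a condition. By coding length, the ranges of *Acvr1* and *Tgfbr2* overlapped in both treated conditions.

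**Figure D1:**
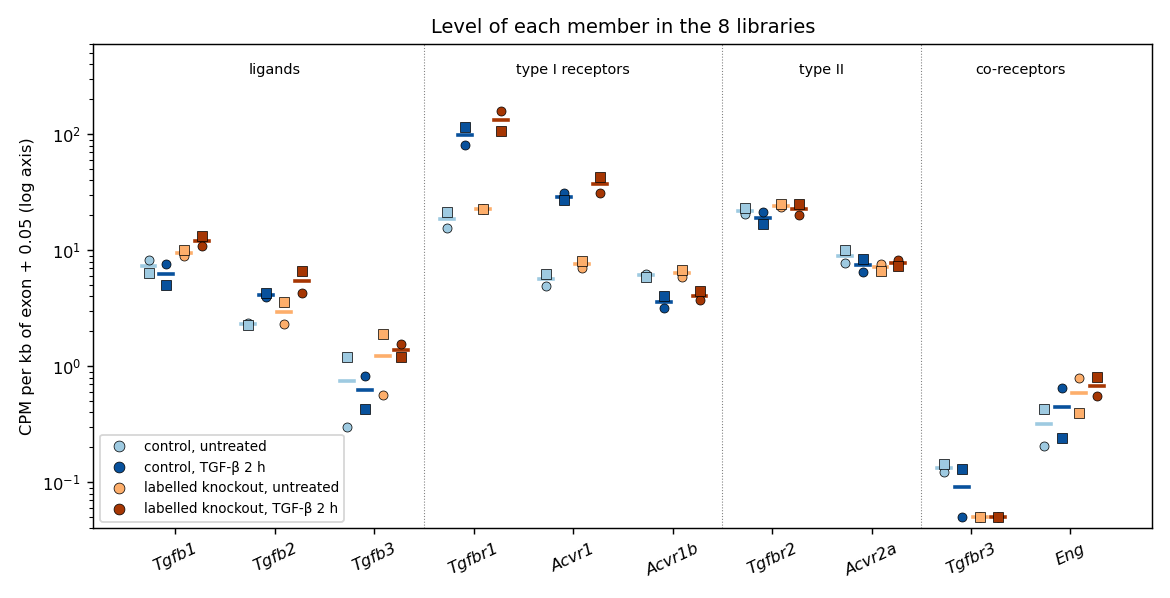
Level of each gene in CPM per kb of exon, with 0.05 added, on a log axis. Circles and squares are libraries 1 and 2 of a condition and lines their means. *Tgfbr1* and *Acvr1* stand higher in every treated library than in any untreated one, while *Tgfbr2* stays between 16.9 and 25.2 CPM per kb.

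*Tgfb1*, on chr7:26472021-26490096 of mm9, encodes the ligand that was also added as a protein, and per kb of exon it was the most abundant of the 3 ligand mRNAs in every condition. By coding length *Tgfb2* stood above it in treated control cells, at 15.8 against 13.7 CPM per kb, with overlapping ranges. In control cells it stood at 21.1 and 16.2 CPM untreated and at 19.2 and 12.8 CPM treated. Libraries labelled knockout stood at 22.9 and 25.6 CPM untreated and at 27.6 and 34.0 CPM treated. Libraries with and without TGF-β overlapped in control cells, and the libraries labelled knockout lay above those of control cells in either treatment. On the log2 scale the change with TGF-β was -0.22 (95% interval -0.78 to 0.34) for control cells and 0.34 in libraries labelled knockout (95% interval -0.21 to 0.89).

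In the treated libraries, *Tgfb1* was 1.92-fold higher in those labelled knockout than in control cells (log2 fold change 0.94 ± 0.24 SE, adjusted p = 0.0313 by edgeR's quasi-likelihood test). This was 1 of the 9 tested genes, and in this comparison 15.0% of all 13028 tested genes were called in either direction and 8.47% of all tested genes were called higher. Calls required an adjusted p below 0.05 with a log2 fold change beyond 0.5 in either direction. The call was lost in a fit of the 4 libraries compared (0.95, adjusted p = 0.104) and without treated control library 2 (0.70, adjusted p = 0.104), treated library 2 labelled knockout (0.79, adjusted p = 0.166), or untreated library 1 (0.94, adjusted p = 0.0580) or 2 (0.94, adjusted p = 0.0584) labelled knockout. In the untreated libraries the difference was 0.38 on the log2 scale (95% interval -0.18 to 0.94), and the difference between these differences, tested as the interaction of genotype with treatment, was 0.56 ± 0.35 SE (adjusted p = 0.683).

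*Tgfb2*, on chr1:188447065-188529871, encodes a second ligand of the same receptors that relies on a co-receptor for binding. In control cells its level was 11.1 and 10.7 CPM untreated and 18.9 and 20.3 CPM treated. Libraries labelled knockout had 11.0 and 17.0 CPM untreated and 20.4 and 31.8 CPM treated. All treated libraries lay above all untreated ones, but the log2 fold changes of 0.84 ± 0.28 SE in control cells (adjusted p = 0.0919) and 0.88 ± 0.28 SE in libraries labelled knockout (adjusted p = 0.0963) did not pass edgeR's test. Without a filter on low counts, over 20463 genes, both passed, with 0.84 (adjusted p = 0.0258) and 0.94 (adjusted p = 0.00859), and without treated library 1 labelled knockout the latter comparison passed with 1.18 (adjusted p = 0.0449). Between genotypes it differed by 0.38 untreated (95% interval -0.27 to 1.03) and by 0.42 treated (95% interval -0.18 to 1.02).

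*Tgfb3*, on chr12:87397694-87419991, encodes the third ligand and was rare. Its counts were 7 and 32 in untreated control cells, 28 and 12 in treated control cells, and, in libraries labelled knockout, 8 and 47 untreated and 63 and 49 treated. In CPM, both treated libraries lay within the range of the untreated ones in either genotype. The 95% interval of the effect of TGF-β ran, on the log2 scale, from -1.97 to 1.42 in control cells and from -1.45 to 1.66 in libraries labelled knockout. Between the treated genotypes it differed by 1.20 (95% interval -0.40 to 2.79).

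As shares of the ligand mRNA per kb, *Tgfb1* made up 76.5 and 65.3% in untreated control cells and 61.6 and 52.3% after TGF-β. *Tgfb2* made up 21.2 and 22.8% untreated and 32.1 and 43.8% treated. In the libraries labelled knockout the *Tgfb1* share was 76.2 and 65.2% untreated and 65.3 and 63.2% treated, with *Tgfb2* at 19.4 and 22.8% untreated and 25.5 and 31.3% treated. The share of *Tgfb2* was thus higher in each treated library than in any untreated one, and that of *Tgfb1*, per kb of exon, was above 50% in every library. Of the ligand counts, undivided by length, *Tgfb1* took 63.9 and 52.6% in untreated control cells (95% Wilson intervals 58.0 to 69.3% and 46.4 to 58.6%) and 47.1 and 37.2% in treated ones (42.5 to 51.8% and 32.2 to 42.6%). In libraries labelled knockout it took 64.2 and 52.4% untreated (56.6 to 71.2% and 47.3 to 57.5%) and 51.9 and 48.7% treated (48.1 to 55.7% and 45.5 to 52.1%). *Tgfb2* took the larger share, 59.1%, in treated control library 2. These intervals cover counting error only, not the spread between libraries. With 2 libraries in a condition the shares were not tested.

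*Tgfbr1*, the type I receptor of TGF-β, lies on chr4:47366094-47427803, and its exons share no base with another annotated gene. In control cells it had 101 and 140 CPM untreated and 527 and 753 CPM treated. Libraries labelled knockout had 147 and 147 CPM untreated and 1035 and 695 CPM treated. The lowest treated library thus stood far above the highest untreated one in both genotypes, and the treated libraries differed from each other by less than the rise. The gene took 0.0106% of the counts in untreated control library 1 and 0.0996% in treated library 1 labelled knockout.

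Treatment raised *Tgfbr1* 5.31-fold in control cells (log2 fold change 2.41 ± 0.25 SE, 95% interval 1.84 to 2.97, adjusted p = 9.52e-04 by edgeR) and 5.87-fold in libraries labelled knockout (2.55 ± 0.25 SE, 95% interval 1.99 to 3.12, adjusted p = 7.90e-04). In control cells 9.16% of the tested genes were called with TGF-β and 4.69% were called higher. Among the libraries labelled knockout these shares were 6.82 and 4.25%. Against this background 2 of the 9 tested genes were called, both higher, in each genotype. By p, *Tgfbr1* ranked 47 of 13028 in control cells and 35 in libraries labelled knockout. The 2 effects differed by 0.14 on the log2 scale (95% interval -0.62 to 0.91, adjusted p = 0.941).

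*Acvr1*, on chr2:58241055-58419568, encodes a type I receptor for bone morphogenetic proteins and activins, and a gene of the opposite strand lies within it without sharing exon bases. It rose from 23.5 and 30.1 CPM to 149 and 131 CPM in control cells. The rise in libraries labelled knockout was from 33.9 and 38.8 CPM to 152 and 206 CPM. As for *Tgfbr1*, no treated library overlapped an untreated one. The rise was 5.21-fold in control cells (2.38 ± 0.20 SE, 95% interval 1.92 to 2.84, adjusted p = 5.07e-04) and 4.91-fold in libraries labelled knockout (2.30 ± 0.20 SE, 95% interval 1.84 to 2.75, adjusted p = 4.45e-04), and the effects differed by -0.086 (95% interval -0.71 to 0.54). *Acvr1* ranked 14 by p in control cells and 24 in libraries labelled knockout. Between genotypes it differed by 0.44 untreated (95% interval -0.016 to 0.90, adjusted p = 0.352) and by 0.36 treated (95% interval -0.067 to 0.78, adjusted p = 0.230).

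*Acvr1b*, on chr15:101004556-101043032, encodes the main type I receptor of activin and nodal. Its level went from 20.4 and 19.1 CPM to 10.3 and 13.0 CPM in control cells. In the libraries labelled knockout the values were 19.2 and 22.2 CPM untreated and 12.0 and 14.4 CPM treated. Every treated library lay under every untreated one, opposite to the other type I receptors. The log2 fold changes of -0.76 ± 0.22 SE (95% interval -1.26 to -0.26, adjusted p = 0.0623) and -0.65 ± 0.22 SE (95% interval -1.15 to -0.16, adjusted p = 0.118) did not pass edgeR's test, with adjusted p from 0.0513 to 0.412 over the alternatives.

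**Figure D2:**
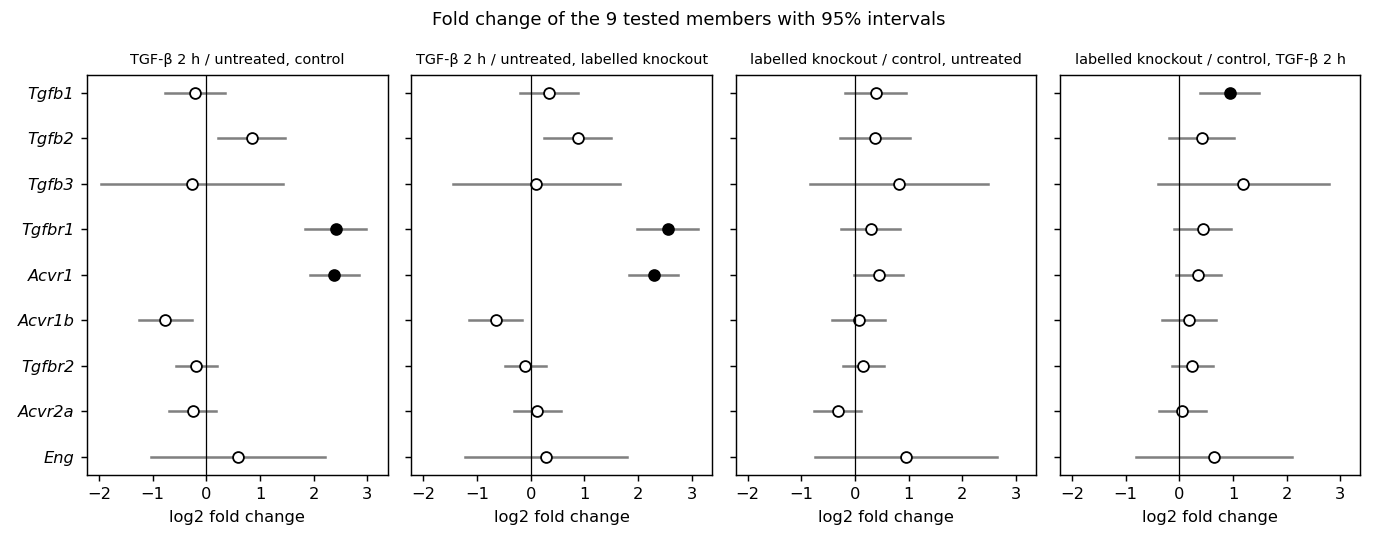
Log2 fold changes of the 9 tested genes with 95% intervals (bars) in the 4 comparisons. Filled circles were called. *Tgfbr1* and *Acvr1* are called in both genotypes with TGF-β, at 2.30 to 2.55, and *Tgfb1* between the treated genotypes, at 0.94.

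*Tgfbr2*, on chr9:115993415-116084383, encodes the type II receptor that binds TGF-β first. In control cells it had 164 and 187 CPM untreated and 172 and 137 CPM treated. The libraries labelled knockout had 190 and 200 CPM untreated and 161 and 204 CPM treated. Treated and untreated libraries overlapped in each genotype. The log2 fold change with TGF-β had a 95% interval from -0.57 to 0.20 in control cells and from -0.48 to 0.28 in libraries labelled knockout, which leaves out a rise of the size seen for *Tgfbr1*.

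*Acvr2a*, on chr2:48669629-48758789, encodes a type II receptor of activins. Its libraries ranged from 36.6 to 56.3 CPM over all conditions, and those of treated and untreated cells overlapped. The intervals of its change with TGF-β ran from -0.69 to 0.18 in control cells and from -0.31 to 0.56 in libraries labelled knockout. *Acvr2a* shares 446 exon bases with *Orc4* on the opposite strand, which stood at 42.3 to 81.3 CPM, and the part of shared reads was not tested.

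The balance of type I and type II receptor mRNA followed from these values. *Tgfbr1* per kb was 0.760 and 0.928 times *Tgfbr2* in untreated control cells and 3.80 and 6.80 times in treated ones. In the libraries labelled knockout the ratio was 0.956 and 0.911 untreated and 7.95 and 4.21 treated. Summed over the 3 type I and the 2 type II genes, the ratio was 0.944 and 1.02 in untreated and 4.14 and 5.78 in treated control cells, and 1.14 and 1.19 in untreated and 6.88 and 4.72 in treated libraries labelled knockout. For these 5 genes, near-equal amounts per kb in untreated cells thus became an excess of type I mRNA in every treated library, while the type II sum lay between 25.3 and 33.0 CPM per kb. The size of the excess depends on which receptors are counted. *Bmpr2*, a type II receptor outside these sums, went from 14.2 and 16.9 CPM per kb untreated to 29.4 and 37.6 treated in control cells, and from 15.8 and 16.8 to 39.6 and 38.8 in libraries labelled knockout. With *Bmpr1a* added to the type I sum and *Bmpr2* and *Acvr2b* to the type II sum, a choice made after seeing the data, the ratio was 0.930 to 0.999 in untreated and 2.21 to 3.06 in treated libraries. *Tgfbr1* provided 58.2 to 63.9% of the type I sum in untreated libraries and 69.3 to 81.9% in treated ones. These ratios are descriptions without a test and give mRNA, not receptor protein.

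**Figure D3:**
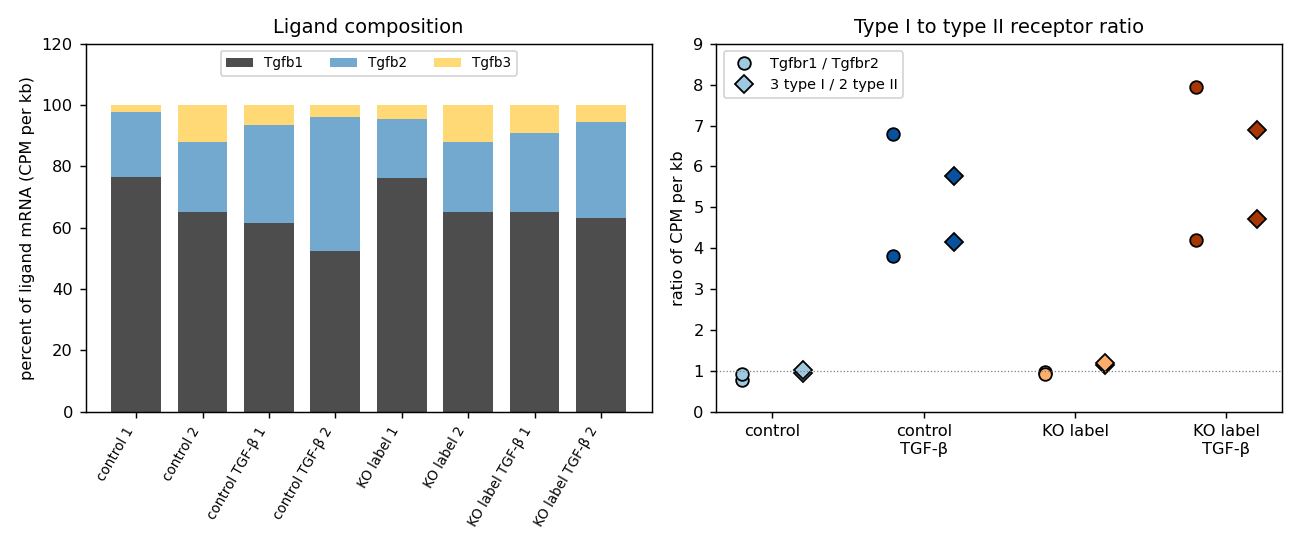
Left, share of each ligand in the ligand mRNA, in percent of CPM per kb, for each library. Right, ratio of *Tgfbr1* to *Tgfbr2* (circles) and of 3 type I to 2 type II genes (diamonds), for each library, which lies between 0.760 and 1.19 untreated and between 3.80 and 7.95 treated. KO label marks libraries labelled knockout.

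The co-receptors were near the limit of detection. *Tgfbr3*, on chr5:107535589-107718648, had 4 and 5 counts in untreated control cells, 0 and 5 in treated ones and 0 in all 4 libraries labelled knockout, and did not pass the filter. Its level in untreated control cells, 0.482 and 0.610 CPM, stood beside floors of 0.661, 0.398, 0.244 and 0.238 CPM in those 4 libraries, where a floor is the level of 3 counts. Both control values lie above 3 of these floors and under the highest, and the difference was not tested at so few counts. *Eng*, on chr2:32502115-32538189, had 5 and 12 counts in untreated control cells, 25 and 7 in treated ones, 13 and 10 in untreated libraries labelled knockout and 24 and 37 in treated ones. Its intervals were wide, from -1.04 to 2.22 with TGF-β in control cells and from -1.23 to 1.80 in libraries labelled knockout. *Eng* shares 124 exon bases with *Ak1* on the same strand and 61 with *Fpgs* on the opposite one. *Ak1* stood at 83.0 and 76.8 CPM in untreated and 158 and 147 CPM in treated control cells, and at 143 and 143 CPM untreated and 294 and 293 CPM treated in libraries labelled knockout, and its part in the few counts of *Eng* was not tested.

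Between the untreated genotypes none of the 9 tested genes was called by edgeR, and 0 had an unadjusted p under 0.05, beside 14.9% of all tested genes. In this comparison 1.83% of all tested genes were called, so a count of 0 among 9 is near the background. The intervals left room for moderate differences, as for *Tgfbr1* from -0.25 to 0.83 and for *Tgfbr2* from -0.23 to 0.54. DESeq2 called none of these genes either. Between the treated genotypes the intervals were -0.097 to 0.97 for *Tgfbr1* and -0.14 to 0.62 for *Tgfbr2*. There, 1 of the 9 tested genes had an unadjusted p under 0.05 by edgeR, beside 31.4% of all tested genes. The interaction of genotype with treatment was called for 0% of the 13028 genes by edgeR, with 1134 at an unadjusted p under 0.05, while DESeq2 called 30. Of the 9 genes, 0 had an unadjusted p under 0.05 for the interaction, beside 8.70% of all tested genes.

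**Figure D4:**
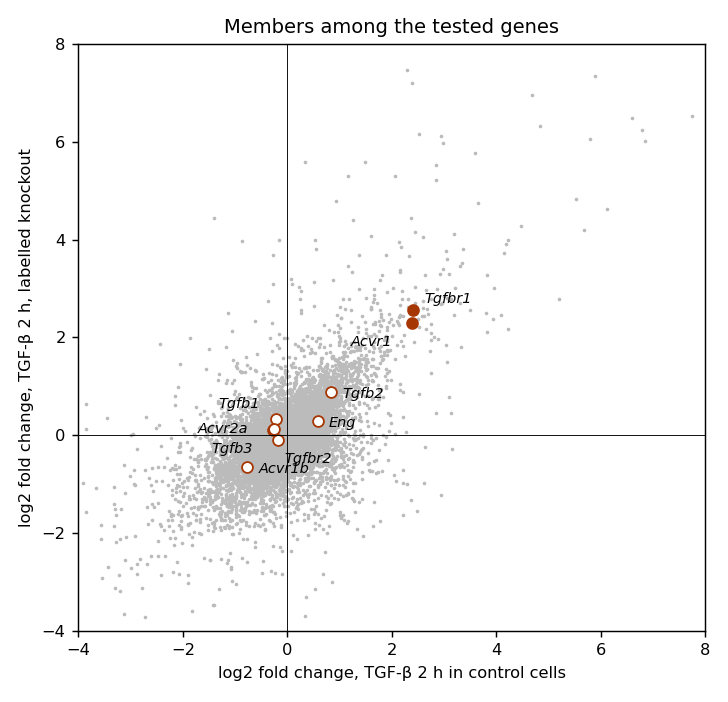
Log2 fold change with TGF-β in control cells against that in libraries labelled knockout, for 13028 tested genes (grey) and the 9 tested ligand and receptor genes (circles, filled where called in both). Axes run from -4 to 8, and 30 genes lie outside. *Tgfbr1* and *Acvr1* lie near 2.4 on both axes, apart from the other 7.

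The genes with the pattern most like each called gene over the 8 libraries were found by the root mean square difference of log2 CPM centred on each gene's mean. Nearest to *Tgfbr1* were D630003M21Rik at 0.289, *Nt5e* at 0.306 and *Ctla2b* at 0.317. *Acvr1* was followed more closely, by *Creb3l2* at 0.172, 6330512M04Rik at 0.225 and *Cyth4* at 0.226. The flatter *Tgfb1* had 548 of 13027 genes within 0.25, led by *Ankrd13b* at 0.0843, *Arhgap23* at 0.0912 and *Ptprs* at 0.0943.

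Other genes of the pathway were read by lists. Early response genes served as a check of the treatment, and 7 of 8 rose in both genotypes, beside 4.69 and 4.25% of all tested genes called higher. *Snai1*, a transcription factor of EMT, rose in control cells by 4.23 ± 0.32 SE (log2, adjusted p = 4.16e-04) and by 3.99 ± 0.30 SE in libraries labelled knockout (adjusted p = 3.13e-04). *Id1*, a target of bone morphogenetic protein signals, is named after its values were seen, as the single gene of the list to fall, and changed by -0.65 ± 0.17 SE in control cells (adjusted p = 0.0480). In libraries labelled knockout *Id1* was at 0.31 ± 0.17 SE (adjusted p = 0.337), and the interaction was 0.96 ± 0.25 SE (adjusted p = 0.444). In control cells the list had a median log2 fold change of 1.89, beside 0.016 over all tested genes. In libraries labelled knockout its median was 2.31, beside 0 over all tested genes. The same genes, *Smad7*, *Skil* and *Pmepa1*, stand in this list and in that of negative feedback.

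Of 12 other receptors and co-receptors of the superfamily, 5 passed the filter and 1 was called in each genotype, beside 9.16 and 6.82% of all tested genes. This was *Bmpr2*, the type II receptor of bone morphogenetic proteins, with 49.6 and 59.1 CPM untreated and 103 and 132 CPM treated in control cells. In the libraries labelled knockout *Bmpr2* had 55.3 and 58.8 CPM untreated and 139 and 136 CPM treated. It rose by 1.11 ± 0.17 SE in control cells (adjusted p = 0.00505) and by 1.27 ± 0.17 SE in libraries labelled knockout (adjusted p = 0.00314). Of the other type I receptors, *Bmpr1a* (ALK3) was tested, at 0.42 ± 0.21 SE in control cells (adjusted p = 0.229) and 0.32 ± 0.21 SE in libraries labelled knockout (adjusted p = 0.409), and *Acvrl1* (ALK1), *Acvr1c* (ALK7) and *Bmpr1b* (ALK6) did not pass the filter.

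Among the 11 genes of the latent complex and its activation, 7 were tested, with 2 higher in control cells and 5 higher in libraries labelled knockout, beside 4.69 and 4.25% of all tested genes. Whether the counts differ between genotypes was not tested. For the interaction, edgeR called 0 of the 34 tested genes of the 5 lists, with 4 at an unadjusted p under 0.05, beside 8.70% of all tested genes, and DESeq2 called 1, beside 0.230% of all tested genes. *Itgb6*, the β subunit of an integrin that frees TGF-β from its latent complex, rose by 2.87 ± 0.22 SE (adjusted p = 4.16e-04) and 2.98 ± 0.22 SE (adjusted p = 3.13e-04). *Thbs1*, thrombospondin, rose by 1.49 ± 0.26 SE (adjusted p = 0.0101) and 2.30 ± 0.27 SE (adjusted p = 0.00169). *Furin*, the protease that cleaves the ligand precursor, passed in libraries labelled knockout with 1.31 ± 0.18 SE (adjusted p = 0.00410) and was at -0.0052 ± 0.18 SE in control cells, but the interaction of 1.31 ± 0.26 SE did not pass edgeR's test (adjusted p = 0.392).

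Of 8 signal transducers, 7 were tested and 1 was called in each genotype, beside 9.16% of all tested genes in control cells and 6.82% in libraries labelled knockout. *Smad3*, which TGFBR1 phosphorylates, rose by 0.80 ± 0.19 SE in control cells (adjusted p = 0.0341) and 0.99 ± 0.19 SE in libraries labelled knockout (adjusted p = 0.0171). All 10 negative feedback genes were tested, with 5 higher in control cells and 6 in libraries labelled knockout, beside 4.69 and 4.25% of all tested genes. *Skil*, which encodes the SMAD repressor SnoN, rose by 2.09 ± 0.18 SE in control cells (adjusted p = 5.07e-04) and by 2.34 ± 0.19 SE in libraries labelled knockout (adjusted p = 3.13e-04). *Ski* rose by 1.41 ± 0.15 SE (adjusted p = 9.33e-04) and 1.63 ± 0.15 SE (adjusted p = 4.75e-04) in the same order.

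Between the untreated genotypes, edgeR called 0 of the 34 tested genes of these 5 lists, beside 1.83% of all tested genes. Of the 34 genes, 8 had an unadjusted p under 0.05, beside 14.9% of all tested genes, and DESeq2 called 2, beside 3.29%. Between the treated genotypes, the libraries labelled knockout were higher for 3 of 7 tested genes of the latent complex, 2 of 10 of negative feedback and 2 of 8 of the early response, and for none of the 5 other receptors or 7 transducers. *Furin* was higher by 1.27 ± 0.18 SE (adjusted p = 0.00378), *Ltbp1* by 0.81 ± 0.15 SE (adjusted p = 0.0103) and *Ltbp3* by 1.01 ± 0.23 SE (adjusted p = 0.0212). The *Ltbp* genes encode proteins that tether latent TGF-β to the matrix. *Pmepa1*, an inhibitor of SMAD signalling, was higher by 0.94 ± 0.17 SE (adjusted p = 0.00838), *Ski* by 0.59 ± 0.14 SE (adjusted p = 0.0235) and *Snai1* by 0.79 ± 0.23 SE (adjusted p = 0.0479). These counts stand beside the 8.47% of all tested genes that were called higher. In either direction edgeR called 6 of the 34 genes, beside 15.0% of all tested genes, and DESeq2 called 10, beside 16.7%.

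**Figure D5:**
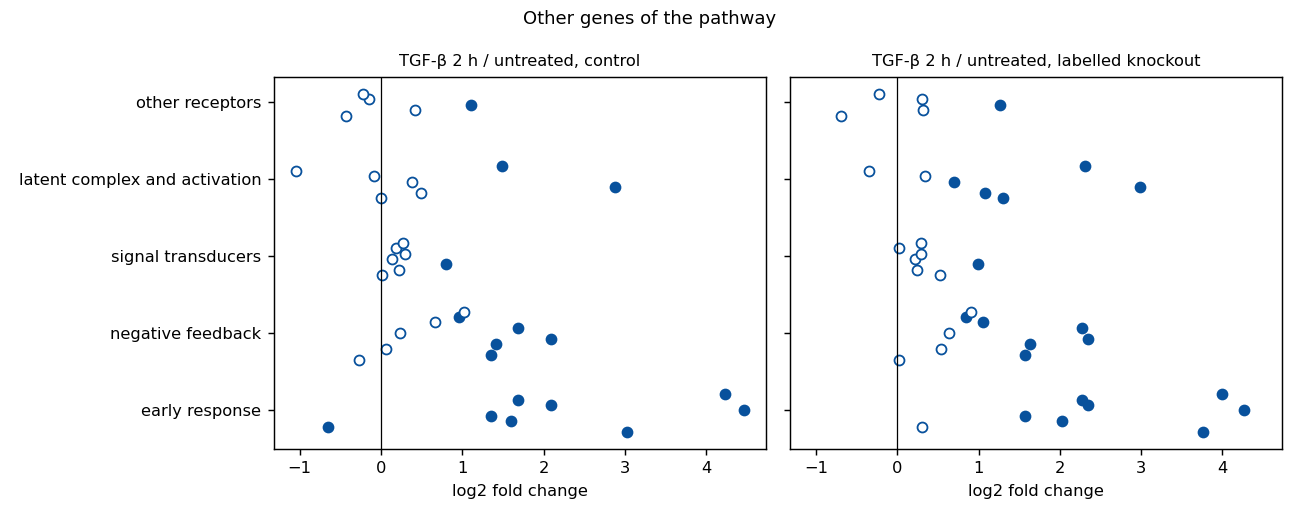
Log2 fold change with TGF-β of the tested genes of 5 pathway lists, in control cells (left) and the libraries labelled knockout (right), 1 circle a gene, filled where called. Vertical offsets within a list only separate circles. *Bmpr2* is the single filled circle among other receptors, and 7 of 8 early response genes lie at 1.35 or above on the left.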

How the data were processed

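RNA-seq of NMuMG cells gave 8 libraries, 2 of each of 4 conditions, and the deposited values are raw read counts for each gene, whole numbers that the authors did not normalize. The paper describes alignment with subjunc to mm10 and mm9, removal of duplicates and DESeq2, whereas the submitters' processing notes name HISAT2, limma and mm10. Paper and labels also differ on the library kit, sequencer and read layout. The counting tool and its use of strand are not given in the sources used here, so that overlapping genes are uncertain. Identifiers of the 37310 genes are ordered as in GENCODE vM1 on NCBIM37 (mm9), which gave positions, symbols and exon lengths. Promoters came from RefSeq, and no protein sequence was used here.

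Counts were scaled by TMM and tested in edgeR 4.0.16 (R 4.3.3). The 13028 genes passing filterByExpr entered 1 quasi-likelihood model of the 4 groups, with Benjamini-Hochberg adjustment over all of them. A call needed an adjusted p below 0.05 with a log2 fold change beyond 0.5 in either direction (adjusted p alone for the interaction). Standard errors are the absolute log2 fold change divided by the square root of F, and 95% intervals use the t quantile of the model's total degrees of freedom. The code was tested on simulated data. The paper calls the libraries of a condition biological replicates, and neither it nor the labels says whether they came from separate cultures, so p-values measure the spread between these samples. The 10 genes and the gene lists were chosen with earlier results of these data known. All 10 genes are named, with at most the 3 called genes of smallest p of each other list and the 3 nearest patterns. A gene of the early response list is not reported here by name. The alternatives were DESeq2 1.42.0, RLE factors, no filter on low counts, a replicate block, only the libraries compared, each library left out, and, for levels, other lengths.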

Additional observations from a re-analysis of the deposited data

How the results depend on the processing

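The calls of *Tgfbr1* and *Acvr1* with TGF-β held in both genotypes under every alternative run, with log2 fold changes from 2.10 to 2.82 for *Tgfbr1* and from 2.06 to 2.57 for *Acvr1*. The call of *Tgfb1* between the treated genotypes was the one that did not: 0 of the 9 genes were called with only the libraries compared, and 0 or 1 with single libraries left out (values with *Tgfb1*). DESeq2, RLE factors and a replicate block changed no call of a ligand or receptor. For genes not called, leaving out 1 library could turn the direction. With TGF-β in control cells the ranges were -0.55 to 0.019 for *Tgfb1*, -0.99 to 1.20 for *Tgfb3* and -0.48 to 1.35 for *Eng*. In libraries labelled knockout they were -0.47 to 1.35 for *Tgfb3*, -0.27 to 0.071 for *Tgfbr2* and -0.23 to 0.88 for *Eng*. Between genotypes they were -0.42 to 2.29 for *Tgfb3* and -0.044 to 0.17 for *Acvr1b* untreated, and -0.12 to 0.27 for *Acvr2a* treated. For the interaction they were -0.29 to 0.40 for *Tgfb2*, -1.09 to 1.62 for *Tgfb3*, -0.15 to 0.46 for *Tgfbr1*, -0.30 to 0.14 for *Acvr1*, -0.038 to 0.32 for *Acvr1b*, -0.068 to 0.27 for *Tgfbr2* and -1.07 to 0.78 for *Eng*. The causes were not tested.

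Without division by exon length the mean share of *Tgfb1* among the ligands was 58.2% (control) and 58.3% (labelled knockout) untreated and 42.2 and 50.3% treated, and the untreated ratio of *Tgfbr1* to *Tgfbr2* was 0.682 and 0.754.

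Calls over all genes, the background, moved more. With TGF-β in control cells there were 1194, against 470 with only the libraries compared and 2021 without a filter. In libraries labelled knockout there were 889, against 1832 without a filter. Between untreated genotypes there were 238, against 428 by DESeq2, 756 without a filter, 804 with only the libraries compared and 150 with the replicate block. Between treated genotypes there were 1959, against 410 with only the libraries compared. The interaction, at 0, gave 211 without a filter. With single libraries left out these counts ranged from 139 (without untreated control library 1) to 1479, from 136 (without untreated library 1 labelled knockout) to 1381, from 41 (without untreated control library 2) to 393 and from 486 (without treated library 2 labelled knockout) to 2790, in this order.

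Whether same-numbered libraries share more than a number is not given in the sources used here. Their deviations correlated across genes at 0.30 with TGF-β in control cells, -0.0092 in libraries labelled knockout, 0.098 between untreated and -0.47 between treated genotypes. With the numbers exchanged in the treated libraries labelled knockout, a setting chosen after seeing the data, the block gave 2809 calls over all genes and 1 among the ligands and receptors, against 1490 and 1 as numbered. *Tgfb3*, *Tgfbr3* and *Eng* had 0 to 63 counts in a library.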
